A study of Rattus norvegicus with 84 samples.

Results

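The 10 genes Alb, Apoa1, Apoa2, Apoc3, Apoh, Fga, Fgb, Fgg, Hp and Serpina1 encode proteins that hepatocytes secrete into the blood, and their mRNAs were followed in extracellular vesicles (EVs) of rat plasma and brain. They were taken by symbol from the annotated rows of the deposited gene table, as 10 of 18782 annotated genes. EVs are membrane-enclosed particles that cells release, and they carry RNA of the cell that shed them. EV RNA came from 21 rats in 7 groups of 3 rats, and each rat gave brain and plasma EVs, so that 42 mRNA libraries were available. Healthy rats were wild type and had no surgery. All other rats were adult wild-type male Sprague-Dawley rats aged 8 to 12 weeks whose middle cerebral artery was occluded for 90 min. On day 3 after stroke the control group received saline, and the hNSCs group received 200000 human neural stem cells (hNSCs) of a line, both through the common carotid artery. EVs were collected at 4, 10, and 31 days poststroke, which is 1, 7, and 28 days after injection, from the ipsilateral hemisphere and from plasma.

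The liver makes most circulating plasma proteins, and their mRNAs are among the most abundant transcripts of hepatocytes. Albumin is the main carrier and osmotic protein of plasma, the apolipoproteins build lipoprotein particles, and the 3 fibrinogen chains are assembled into the clotting protein that thrombin turns into fibrin. Haptoglobin binds free hemoglobin, and Serpina1 encodes alpha-1 antitrypsin, which inhibits neutrophil elastase. During inflammation, interleukin-6 and interleukin-1 make hepatocytes produce more of the positive acute-phase proteins such as haptoglobin and fibrinogen, and less of the negative ones such as albumin. The brain is not known as a major source of these mRNAs.

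The promoters of Alb and of the fibrinogen chains are shown because the text below compares fibrinogen reads with albumin reads within libraries. RefSeq start sites of the rat assembly GRCr8, another build than the Rnor_6.0 used for alignment, gave 250 bases before and 50 bases after the start for 6 of the 10 genes. Capitals mark matches, on either strand, to the letters GTTAAT (part of the site of the liver factor HNF1), TTGCNNAA (a C/EBP motif) and CTGGGAA (an interleukin-6 response motif), and the 3 motifs do not overlap in these windows. Each run reads from 5′ to 3′ along the strand of its gene.
Alb, chr14:17906930-17907229, minus strand: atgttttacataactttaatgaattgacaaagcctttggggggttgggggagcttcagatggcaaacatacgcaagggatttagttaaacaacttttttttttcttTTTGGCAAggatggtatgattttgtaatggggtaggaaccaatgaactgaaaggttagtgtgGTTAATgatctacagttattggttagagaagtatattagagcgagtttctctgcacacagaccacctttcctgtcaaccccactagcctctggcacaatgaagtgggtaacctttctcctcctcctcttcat
Fga, chr2:170671919-170672218, plus strand: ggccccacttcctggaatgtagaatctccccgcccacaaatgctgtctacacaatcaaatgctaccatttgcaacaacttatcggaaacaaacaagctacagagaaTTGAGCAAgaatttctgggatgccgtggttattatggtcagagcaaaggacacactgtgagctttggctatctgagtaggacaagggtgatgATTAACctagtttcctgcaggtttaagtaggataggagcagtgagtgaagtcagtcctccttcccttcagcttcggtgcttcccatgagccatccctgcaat
Fgb, chr2:170700826-170701125, minus strand: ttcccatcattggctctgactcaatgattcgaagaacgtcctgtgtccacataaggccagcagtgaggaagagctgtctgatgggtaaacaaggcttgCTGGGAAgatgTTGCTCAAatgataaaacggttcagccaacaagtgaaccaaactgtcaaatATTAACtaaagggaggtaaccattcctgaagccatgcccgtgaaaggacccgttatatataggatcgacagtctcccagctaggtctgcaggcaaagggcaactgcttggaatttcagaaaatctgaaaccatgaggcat
Fgg, chr2:170652833-170653132, plus strand: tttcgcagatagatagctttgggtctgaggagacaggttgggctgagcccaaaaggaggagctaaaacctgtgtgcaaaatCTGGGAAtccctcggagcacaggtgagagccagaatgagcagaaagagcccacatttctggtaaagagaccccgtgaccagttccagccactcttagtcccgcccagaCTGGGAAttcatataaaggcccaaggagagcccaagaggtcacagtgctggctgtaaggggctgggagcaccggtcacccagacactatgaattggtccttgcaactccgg

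Fga, Fgb and Fgg are neighbours on chromosome 2. GTTAAT was found in the windows of Alb, Fga and Fgb, at 82, 52 and 90 bases before the start, and in 7.45% of 33469 rat promoter windows. TTGCNNAA was found in the same 3 windows, with its first base at 144, 144 and 141 bases before the start, and in 10.6% of all windows. CTGGGAA occurred once in Fgb and at 2 positions in Fgg, and 11.3% of all windows held it. The windows of Serpina1 and Apoh held none of the 3. These matches describe letters in a window and were not tested for function.

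Plasma libraries held 11.9 to 49.8 M reads counted on genes (M for 1000000), with a median of 34.4 M, and brain libraries held 13.2 to 37.7 M. Annotated genes took 45.1 to 75.6% of these reads in plasma and 3.18 to 51.9% in brain. The mRNA libraries have no molecular identifiers (UMIs), so intervals and floors cover counting error only. For comparisons between groups, edgeR p values measure the spread between rats within groups, pooled over the 7 groups of 3 rats. For brain against plasma they measure the spread of the tissue difference within rats. The plasma library of the second control rat at 4 days stood apart. It held 4141 reads of the 10 genes, against 20156 to 953267 in the other 20 libraries, and results that rest on it are given with and without it. In bulk EV RNA, fewer EVs from one cell type and less RNA per EV cannot be told apart.

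In plasma EVs, Alb was the most abundant of the 10 genes by FPKM (fragments per kilobase of transcript and 1000000 fragments, a scale that allows levels of different genes to be compared). Its mean was 891 FPKM (SD 913, n = 21), which ranked 26 among annotated genes. Hp averaged 357 (SD 530) and Serpina1 287 (SD 334). Fgb followed with 153 (SD 171), Fga with 140 (SD 164) and Fgg with 102 (SD 129). Apoa1 averaged 64.2 FPKM (SD 78.9), and Apoh 55.6 (SD 54.2). Apoc3, an inhibitor of lipoprotein lipase, averaged 41.2 (SD 53.7), and Apoa2, the second protein of high-density lipoprotein, 37.4 (SD 42.8) at rank 530. Most SDs were as large as the means, yet the order within a library was steadier than the levels. Alb exceeded Hp in 19 of 21 libraries, Serpina1 exceeded Fgb in 20, and Fga exceeded Fgg in 20. Neighbours without a steady order were Hp and Serpina1, with Hp higher in 10 of 21 libraries, Fgb and Fga, with Fgb higher in 11, and Apoa1 and Apoh, with Apoa1 higher in 9. All 10 genes were detected in most plasma libraries, and 6 of 210 values were 0. Apoa2 was listed at 0 in 4 libraries, and Apoh and Fgg were at 0 in the second control rat at 4 days.

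**Figure D1:**
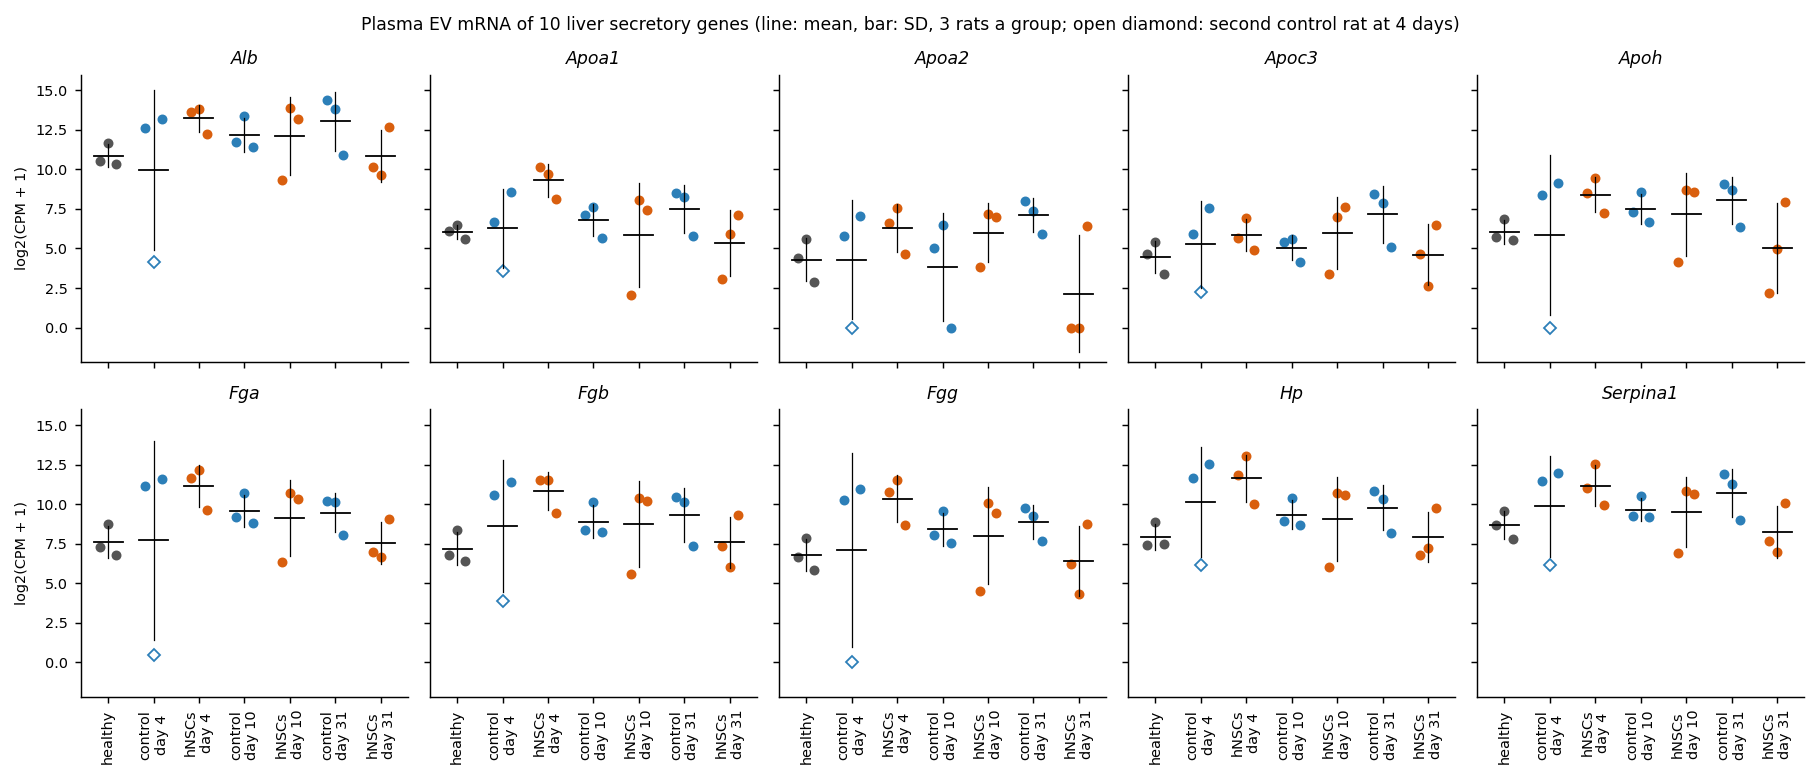
Plasma EV levels of the 10 genes in every rat, as log2(CPM + 1) of TMM-normalized counts on the vertical axis, with the 7 groups along the horizontal axis, a point for each rat, a line at the mean and a bar of 1 SD (n = 3). The second control rat at 4 days (open diamond) lies below the other rats of its group for each gene.

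Brain-derived EVs held almost none of these mRNAs. Of 210 brain values 174 were 0, and the 828 reads in all came to 7.73 per 1000000 annotated reads, against 11948 in plasma. Apoa2, Apoc3 and Apoh had no reads in any of the 21 brain libraries. Hp had the most, with 421 reads in 14 libraries and at most 70 in a library. Alb had 187 reads in 7 libraries, and Apoa1 had 164 reads in 7 libraries, 92 of them in the first hNSCs rat at 4 days. Serpina1 had 34 reads, Fga 18, and Fgb and Fgg 2 each.

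The plasma level of Alb pooled over rats was 3604 times the brain level (exact 95% interval 3123 to 4182). The ratio was 348 for Hp (316 to 383) and 123 for Apoa1 (106 to 144), the 2 lowest of the 10 genes. It was 5732 for Fga (3627 to 9671) and 4359 for Serpina1 (3120 to 6295). Single brain libraries decided part of these ratios, an alternative added after the data were seen. Without the first hNSCs rat at 4 days, Apoa1 kept 72 brain reads and its ratio was 275 (219 to 352). Fga kept 7 of its 18 reads without the first hNSCs rat at 31 days, with a ratio of 12599 (6115 to 31338). Serpina1 kept 17 of its 34 without the second hNSCs rat at 31 days, with a ratio of 7903 (4936 to 13567). Without the library with most of their reads, Alb had a ratio of 4882 and Hp of 356. Against a floor of 3 reads over all brain libraries, the ratio was 7863 for Apoh, 2885 for Apoc3 and 2455 for Apoa2. The exact lower bounds were 6395, 2346 and 1996. Fgb and Fgg, with 2 brain reads each, gave ratios of 43810 (12128 to 361756) and 30720 (8504 to 253662).

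The test that paired brain and plasma of each rat (edgeR quasi-likelihood test with the rat as a block, called at an adjusted p below 0.05 and more than 1.5-fold) covered 9 of the 10 genes, since Apoa2 did not pass the filter on low counts. All 9 were called higher in plasma, where 25.7% of the 13470 genes tested were called higher. The 9 genes, near 0 in brain, passed the filter through their plasma counts. The direction of their calls was thus largely fixed in advance, and the calls add little to the levels above. The log2 fold change of Alb was 13.82 (SE 0.88, adjusted p = 9.84e-13), that of Hp 8.65 (SE 0.95, adjusted p = 1.98e-08) and that of Apoa1 8.90 (SE 0.76, adjusted p = 2.22e-10), on a median of −0.26 over all genes. Fitted values of genes without brain reads depend on the prior count, and the exact lower bounds above apply to these genes instead.

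**Figure D2:**
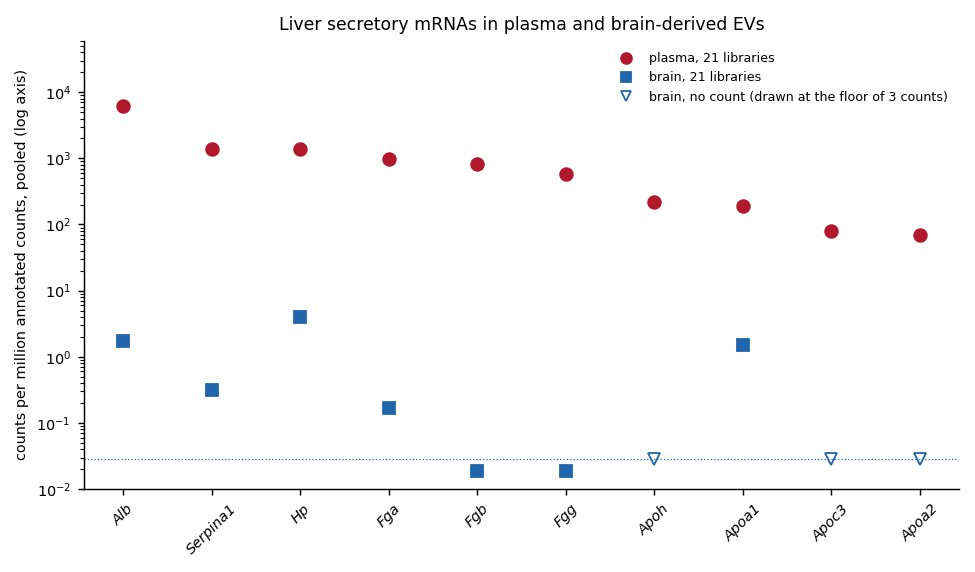
Levels of the 10 genes pooled over the 21 plasma libraries (circles) and the 21 brain libraries (squares), in counts per 1000000 annotated counts on a log axis, with triangles at the floor of 3 counts for genes without brain reads. Plasma lies above brain for all 10 genes, by 123-fold for Apoa1 (275-fold without the brain library that held 92 of its 164 brain reads), 348-fold for Hp and 3604-fold for Alb.

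The few brain reads were not spread evenly over groups. Alb had 21, 26 and 22 reads in the control group at 31 days and 69, 25 and 19 in the hNSCs group at 31 days, and 5 in a healthy rat were all that the other 15 libraries held. Serpina1 had 7, 17 and 10 reads in the hNSCs rats at 31 days and none elsewhere. The 6 brain libraries of day 31 also held more annotated reads, 63.6 M against 43.6 M in the other 15, and all 10 genes together stood at 8.68 per 1000000 annotated reads there and at 6.34 in the others. The share of annotated reads was 29.9 to 51.9% in these 6 libraries and 3.18 to 25.3% in the others, and its part in the Alb reads was not tested. Only Alb and Hp passed the filter in brain, and neither was called in the 6 comparisons between groups (edgeR, lowest adjusted p = 0.352, 0 with an unadjusted p below 0.05 against 0.0896 to 14.8% of all genes, 0 by DESeq2). Of all genes in brain 0.861, 0.572 and 0.00689% were called for control against healthy at 4, 10 and 31 days, and 0.0% for hNSCs against control.

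Albumin mRNA in plasma EVs was measured in counts per 1000000 annotated counts (CPM), scaled between libraries by the trimmed mean of M values (TMM). Alb was 1478, 3325 and 1300 CPM in healthy rats and 6184, 16.8 and 9534 in the control group at 4 days. At 10 days control rats had 3338, 10717 and 2757 CPM of Alb, and at 31 days 21927, 14260 and 1924. The hNSCs group had 12810, 14415 and 4745 CPM at 4 days, 636, 15193 and 9342 at 10 days, and 1140, 798 and 6659 at 31 days. Healthy rats differed up to 2.56-fold in Alb, and control rats after stroke up to 567-fold at 4 days and 11.4-fold at 31 days. The 567-fold difference rested on the second control rat, without which the values at 4 days were 6184 and 9534 CPM. In the hNSCs group at 4 days the difference was 3.04-fold. The control and healthy groups overlapped at each time point. The hNSCs group at 4 days lay above the healthy group, as for 5.11% of all genes tested.

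The apolipoprotein genes followed Alb loosely. Apoa1, the structural protein of high-density lipoprotein, was 67.4, 88.1 and 46.6 CPM in healthy rats, 102, 11.1 and 372 in the control group at 4 days and 1116, 819 and 280 in the hNSCs group at 4 days. Apoa1 was 3.22 CPM in the first hNSCs rat at 10 days and 7.32 in the first hNSCs rat at 31 days, the lowest of the 21 values. Apoh, encoding beta-2 glycoprotein I, which binds phospholipids, was 52.3, 118 and 44.9 CPM in healthy rats and 368, 689 and 149 in the hNSCs group at 4 days. Both genes were higher in each hNSCs rat at 4 days than in any healthy rat, as were 5.11% of all genes tested. Apoa2 ranged from 0 to 259 CPM over the 21 libraries and Apoc3 from 3.75 to 350, both with the highest value in the first control rat at 31 days.

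The 3 fibrinogen genes ran in parallel over the rats. Fgb was 108, 328 and 83.3 CPM in healthy rats, 1534, 13.5 and 2768 in the control group at 4 days, and 2919, 3018 and 698 in the hNSCs group at 4 days. At 10 days Fgb was 326, 1113 and 297 CPM in control rats and 47.2, 1358 and 1157 in hNSCs rats. At 31 days it was 1412, 1144 and 160 in control rats and 164, 65.7 and 639 in hNSCs rats. High and low rats were the same for Fga, with 2247, 0.361 and 3056 CPM in the control group at 4 days, and for Fgg, with 1258, 0 and 2012. The Fga to Fgb count ratio stayed between 0.757 and 1.79 in 20 of 21 libraries and was 0.0268 in the second control rat at 4 days.

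Hp was 170, 474 and 175 CPM in healthy rats. It was 3197, 70.6 and 6104 CPM in the control group and 3651, 8308 and 1045 in the hNSCs group at 4 days. At 10 days Hp was 484, 1329 and 407 in control rats and 64.4, 1649 and 1511 in hNSCs rats, and at 31 days 1863, 1277 and 291 and then 111, 152 and 869. The 4 highest Hp values of the 21 belonged to 2 control rats and 2 hNSCs rats at 4 days, and the second control rat had the second lowest. Serpina1 was 416, 762 and 221 CPM in healthy rats, 2807, 70.9 and 4004 in the control group and 2084, 6020 and 984 in the hNSCs group at 4 days. Each hNSCs rat at 4 days exceeded each healthy rat in Serpina1, as for 5.11% of all genes tested.

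To examine whether stroke altered these mRNAs in plasma EVs, the control group at each time point was compared with the healthy group (edgeR quasi-likelihood test in a model of 7 groups, adjusted over 14720 genes). At 4 days all 10 genes had log2 fold changes above 0, from 1.26 for Apoa1 (SE 1.15) to 3.52 for Hp (SE 1.26), with a median of 2.17 against −0.12 over all genes. Fgb had 3.05 (SE 1.31), Fgg 3.07 (SE 1.65), Fga 2.92 (SE 1.44) and Alb 1.37 (SE 1.26). None was called (adjusted p = 0.742 to 1.00), 2 of the 10 had an unadjusted p below 0.05, as had 5.86% of all genes, and edgeR called 0.0679% of all genes in either direction. DESeq2 called Hp (log2 fold change 3.61, SE 1.22, adjusted p = 0.0489), and the share of all genes that DESeq2 called is not given here. The median over the 10 genes was 2.75 without the second control rat and 1.42 without the third, and limma on log2(FPKM + 1) gave 0.98, or 0.36 with a pseudocount of 0.1. The direction of Alb at 4 days rested on the model, with −0.53 by limma on log2(FPKM + 1), and that of Apoa1 rested on the third control rat, with −0.26 without it.

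At 10 days the log2 fold changes of control against healthy ran from 0.51 for Apoc3 to 1.95 for Fga (SE 1.39), with a median of 1.45 against −0.22 over all genes. No gene of the 10 was called (edgeR, adjusted p = 0.869 to 1.00, 0 with an unadjusted p below 0.05 against 5.6% of all genes, 0 by DESeq2), as for all genes tested (0.0% called). The median was 0.65 to 2.06 when a single library was left out, lowest without the second control rat at 10 days. At 31 days they ran from 1.81 for Apoa1 to 3.07 for Apoc3 (SE 1.22), with a median of 2.28 against −0.09. Alb had 2.64 (SE 1.31), and none was called (edgeR, adjusted p = 0.844 to 1.00, 1 with an unadjusted p below 0.05 against 4.75% of all genes, 0 by DESeq2, 0.0% of all genes called). These 3 comparisons share the healthy rats. At 10 days Fga, with 582, 1658 and 451 CPM against 154, 433 and 112, was the only one of the 10 whose control rats all lay above the healthy rats, as 3.64% of all genes did. At 31 days this held only for Apoa2, with 259, 162 and 60.5 CPM against 20.4, 46.6 and 6.45 (4.34% of all genes), and at 4 days for 0 of the 10 (4.06% of all genes).

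The hNSCs group at 4 days was also compared with the healthy group, a comparison added after the data were seen. Log2 fold changes ran from 1.45 for Apoc3 to 3.99 for Hp (SE 1.29), with a median of 3.08 against −0.16 over all genes. Fgb had 3.68 (SE 1.34), Apoa1 3.45 (SE 1.25) and Alb 2.39 (SE 1.30). edgeR called none (adjusted p = 0.906 to 1.00, 0.0204% of all genes called), and 6 of the 10 had an unadjusted p below 0.05 against 4.19% of all genes. DESeq2 called Hp (4.25, SE 1.22, adjusted p = 0.0131) and Apoa1 (3.68, SE 1.11, adjusted p = 0.0236). The share of all genes called by DESeq2 is not given here, and that of edgeR is no background for these 2 calls. All but Apoa2 and Apoc3, 8 of 10 genes, had every hNSCs rat above every healthy rat, against 5.11% of all genes. The 10 genes moved together over the 21 plasma libraries (median Spearman rho of pairs 0.910). Their counts here and in the other comparisons are thus not counts of independent observations, and the shares over all genes do not measure enrichment. At 10 and 31 days the medians of hNSCs against healthy were 2.01 and 0.38, and edgeR called 0 of the 10 genes at either time, with 0 at an unadjusted p below 0.05 (2.37% and 8.25% of all genes), 0 by DESeq2 and 0.0% of all genes. The median at 10 days was 1.05 by limma on log2(FPKM + 1). At 31 days its direction was not stable. It was −1.06 to 1.07 when a single library was left out, below 0 only without the third hNSCs rat, and −0.24 to 0.46 under the other alternatives, and the sign turned for 10 of the 10 genes under at least 1 of them.

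**Figure D3:**
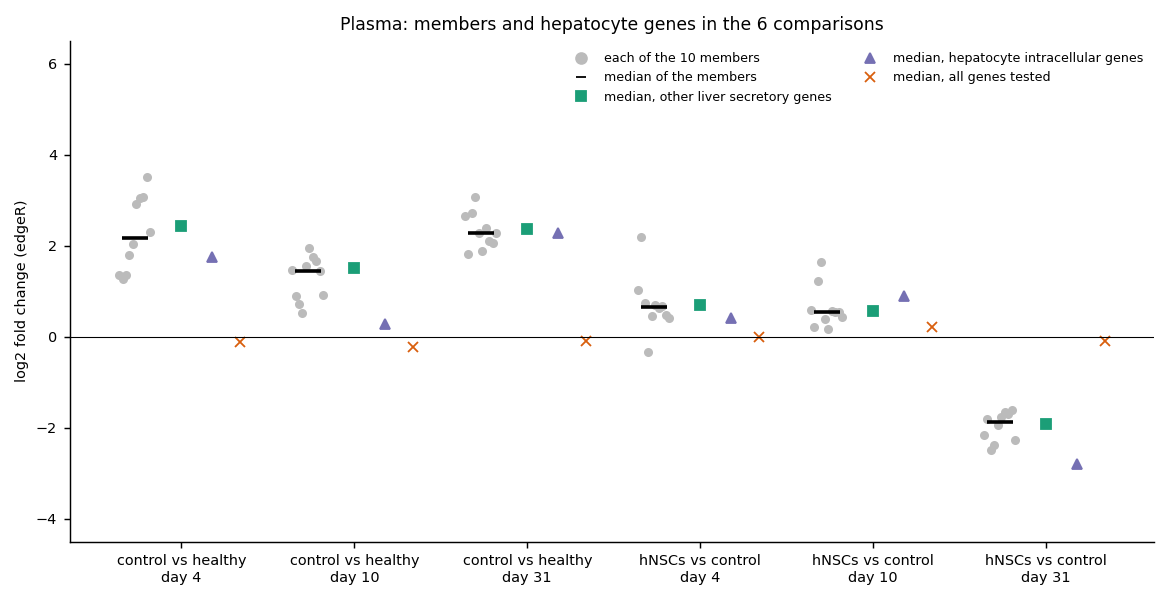
Log2 fold changes in plasma EVs of the 10 genes for control against healthy and hNSCs against control at 4, 10 and 31 days, from the edgeR model (grey points, with their median as a black line), beside the medians of other liver secretory genes, hepatocyte intracellular genes and all genes tested. All grey points of control against healthy lie above 0 and all of hNSCs against control at 31 days lie below 0, and none was called.

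The effect of hNSCs was read from the hNSCs and control groups of the same day. At 4 days the 10 log2 fold changes ran from −0.34 for Apoc3 (SE 1.13) to 2.19 for Apoa1 (SE 1.19), with a median of 0.65 against 0.00 over all genes. None was called (edgeR, adjusted p = 0.814 to 1.00, 0 with an unadjusted p below 0.05 against 3.94% of all genes, 0 by DESeq2, 0.00679% of all genes called), and the median was 0.06 without the second control rat. At 10 days the values ran from 0.18 for Fga to 1.64 for Apoc3 (SE 1.16), with a median of 0.54 against 0.21 and no call (edgeR, adjusted p = 0.997 to 1.00, 0 with an unadjusted p below 0.05 against 4.06% of all genes, 0 by DESeq2, 0.0% of all genes called). The groups overlapped for each of the 10 genes at both times, whereas 3.34% of all genes lay higher and 4.36% lower in every hNSCs rat than in every control rat at 4 days, and 6.2% and 2.38% at 10 days. The sign was not stable, and under at least 1 alternative the sign turned for 6 of the 10 at 4 days and for 8 at 10 days.

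At 31 days all 10 values were below 0. They ran from −2.49 for Apoa2 (SE 2.14) to −1.60 for Hp (SE 1.17), with a median of −1.87 against −0.10 over all genes. Alb had −2.15 (SE 1.29), Apoc3 −2.38 (SE 1.19) and Serpina1 −2.27 (SE 1.13). None was called (edgeR, adjusted p = 0.522 to 0.886, 0 with an unadjusted p below 0.05 against 8.57% of all genes, 0 by DESeq2, 0.0% of all genes). The groups overlapped for all 10 genes, against 4.6% of all genes that lay higher and 6.57% lower without overlap, and the third hNSCs rat exceeded the third control rat in each of them. When a single library was left out, the median stayed between −3.65 and −1.40. The difference of the hNSCs effect between 31 and 10 days, an interaction term, was −4.01 to −1.94 and was not called for any of the 10 genes (edgeR, adjusted p = 0.337 to 0.923, 1 with an unadjusted p below 0.05 against 12.1% of all genes, 0.0% of all genes called). That between 31 and 4 days gave adjusted p values of 0.425 to 0.938 (edgeR, 1 with an unadjusted p below 0.05 against 9.96% of all genes, 0.00679% of all genes called).

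Because the 10 genes shared large differences between rats, their proportions within a library were examined, which do not depend on how libraries are scaled. For each Alb read there were 0.115, 0.143 and 0.135 Hp reads in healthy rats. At 4 days the ratio was 0.517, 4.20 and 0.640 in control rats and 0.285, 0.576 and 0.220 in hNSCs rats. At 10 and 31 days it was between 0.0850 and 0.190 in all 12 libraries. Hp relative to Alb was thus higher in each of the 6 libraries of day 4 than in each of the other 15, with or without hNSCs.

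The Fgb to Alb ratio behaved likewise, with 0.0731, 0.0987 and 0.0641 in healthy rats, 0.248, 0.804 and 0.290 in control rats and 0.228, 0.209 and 0.147 in hNSCs rats at 4 days, and 0.0644 to 0.143 at 10 and 31 days. Fgb and Hp were the only ones of the 9 other genes whose ratio to Alb did not overlap between day 4 and the other libraries, and the ratios of 0.034% of 14719 genes did so. Without the second control rat the same 2 of the 9 genes did not overlap (0.0951% of all genes), and 0 of the 9 were lower in each library of day 4 (0.109%). Fga to Alb was 0.168 to 0.363 in the 5 other libraries of day 4 and 0.0215 in that rat, against 0.0536 to 0.174 elsewhere, so that the ranges overlapped. Fgg to Alb was 0.0874 to 0.211 in these 5 libraries and 0 in that rat, and it overlapped with the 0.0235 to 0.107 of the other 15. The medians of these 5 libraries and of the other 15 were 0.228 and 0.0894 for Fgb, 0.316 and 0.125 for Fga, and 0.203 and 0.0687 for Fgg. The overlap thus does not set Fga and Fgg apart from Fgb in the size of the shift. Serpina1 to Alb was 0.163 to 0.454 in these 5 libraries and overlapped with the 0.122 to 0.282 of the other 15, and Apoa1 to Alb overlapped too.

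Grouped by textbook class, the positive acute-phase genes Fga, Fgb, Fgg and Hp summed to 0.582 to 2.67 reads per read of the negative ones Alb, Apoa1, Apoa2 and Apoc3 in the 6 libraries of day 4, and to 0.231 to 0.476 in the other 15. Without the second control rat the range at day 4 was 0.582 to 1.36. In the wider textbook lists, which include these members, 16 positive acute-phase genes had a median log2 fold change of 3.07 and 9 negative ones of 1.35 for control against healthy at 4 days, and 2.07 and 2.63 at 31 days, with 0 called by edgeR in either list. At an unadjusted p below 0.05 there were 9 of 16 and 0 of 9 at 4 days, beside 5.86% of all genes, and 2 and 3 at 31 days, beside 4.75%. The difference between the lists was not tested. Within day 4 the hNSCs rats had 0.824, 1.22 and 0.582, and the control rats 1.29, 2.67 and 1.36. The hNSCs rats lay below the control rats in this ratio, for which no share over all genes was computed. With 3 rats a group an exact permutation test cannot reach a p below 0.1, and no test was made. Serpina1, whose ratio to Alb overlapped as given above, and Apoh were placed in neither class. No sum that includes Serpina1 was made. The separation of day 4 from the other 15 libraries in the summed ratio also stands without a share over other groups of genes.

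**Figure D4:**
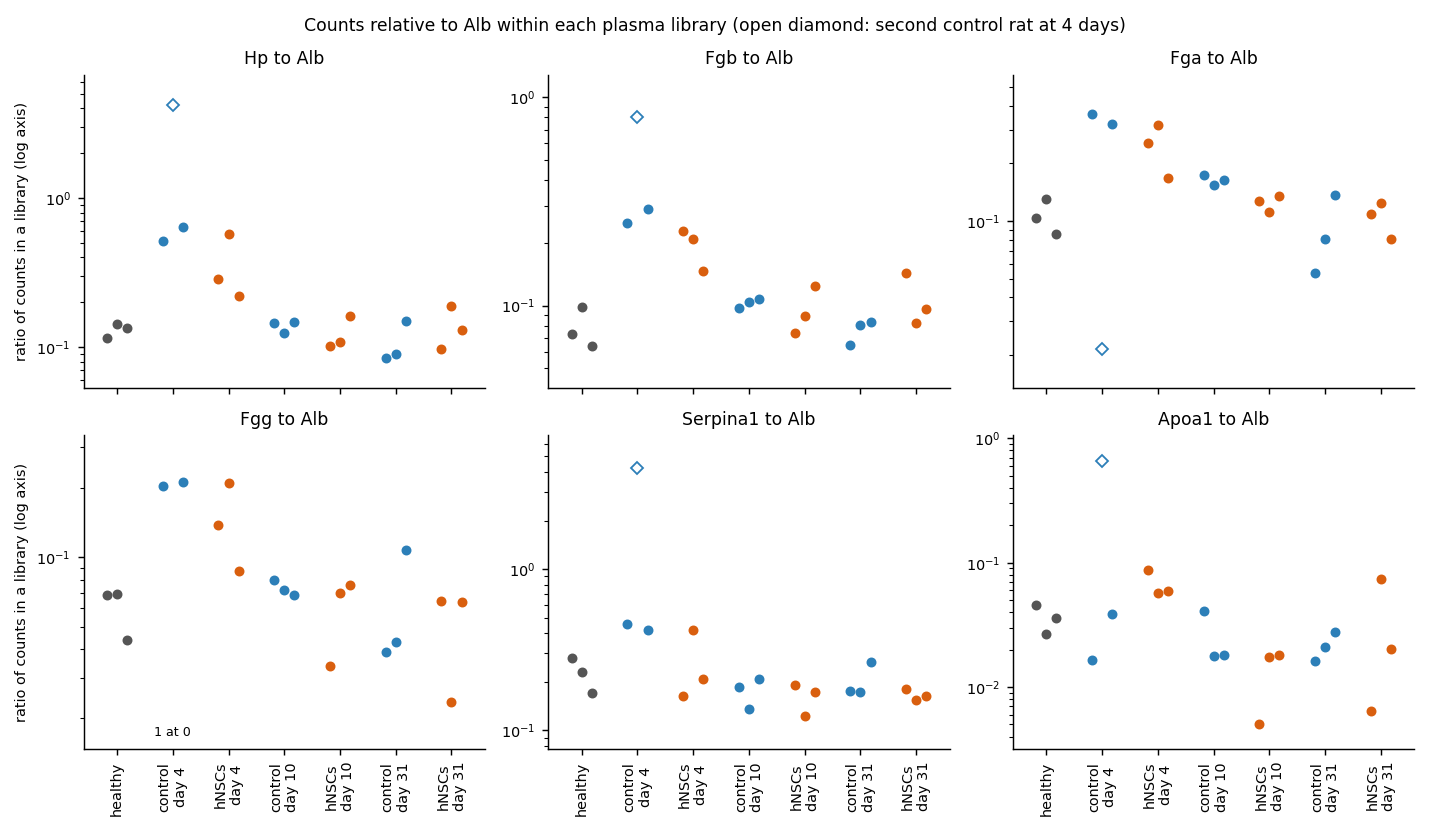
Reads of Hp, Fgb, Fga, Fgg, Serpina1 and Apoa1 per read of Alb in each plasma library, each on its own log axis by group, with 1 point for each rat. For Hp and Fgb the 6 points at 4 days lie above the other 15, while the second control rat (open diamond) lies lowest for Fga and has no Fgg reads.

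Other plasma markers also differed between groups. The 8 red cell genes summed to 43765 to 79953 CPM in healthy rats, 11771 to 21604 in control rats and 5566 to 12940 in hNSCs rats at 4 days, and to 56294 CPM or more later. The 12 neutrophil genes summed to 155 to 271 CPM in healthy rats, 619 to 2543 in control rats and 196 to 804 in hNSCs rats at 4 days, and their later values, 58.5 to 725 CPM, overlapped with these. The 10 macrophage genes summed to 303 to 1340 CPM in healthy rats, 1301 to 4910 in control rats and 545 to 2226 in hNSCs rats at 4 days, with overlap in both cases. The 5 T cell genes summed to 219 to 358 CPM in healthy rats, 19.2 to 91.0 in control rats and 10.3 to 223 in hNSCs rats at 4 days. The control rats at 4 days lay below the healthy ones in this sum and in the red cell sum, as they did for 8.4% of all single genes tested. In the neutrophil sum they lay above the healthy ones, as for 4.06% of all single genes. The hNSCs rats at 4 days also lay below the healthy ones in the red cell sum, as for 8.11% of all single genes. In the second control rat at 4 days S100a9, a neutrophil calcium-binding protein, had 38880 reads, and Tf, the iron carrier transferrin, had 20917. The part of these shifts in the levels of the 10 genes was not tested.

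The plasma profile of the 10 genes was shared with other liver genes. Over the 21 libraries, Spearman correlations of log2(CPM + 1) between pairs of the 10 had a median of 0.910 (0.799 to 0.986, 45 pairs), and 0.898 without the second control rat. Among 10793 other genes, those most like the mean of the 10 were Gc, the vitamin D carrier (rho = 0.991), F2, prothrombin (0.982), Ambp, alpha-1 microglobulin (0.978), Pigr, the polymeric immunoglobulin receptor (0.975), and Apoe (0.975). Of the 50 most like, 30 belonged to a list of other liver secretory genes and 1 to a list of hepatocyte intracellular genes. In brain the closest were Rbbp5 (0.856), Ctc1, Acaca, Slc25a11 and Dcaf1, and none of the 50 most like was on the liver lists. The points share libraries and depth, and these values are descriptions.

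The 10 genes were set beside genes that hepatocytes keep inside the cell. Hpd, an enzyme of tyrosine breakdown, averaged 40.5 FPKM in plasma, Fabp1, the liver fatty acid carrier, 34.3, Cyp2e1 31.7, Cyp3a2 22.9 and Cyp2c11, the male-specific cytochrome P450, 21.8. In brain the highest of the 40 genes on this list were Ass1 with 0.215 FPKM, Pygl with 0.204, Arg1 with 0.161 and Cyp2d1 with 0.035. All 16 intracellular genes that passed the filter were called higher in plasma than in brain, beside 25.7% of all genes tested. Genes near 0 in brain could pass this filter only through plasma, so the direction of these calls was largely fixed in advance. Intestine also makes Apoa1 and Apoc3. Of 10 enterocyte genes 8 were in the table, and they summed to 131 to 325 CPM in healthy rats, 47.8 to 1585 in control rats and 502 to 1828 in hNSCs rats at 4 days, the last above the healthy rats, as for 5.11% of all single genes tested. Among them Apob and Apoa4, which the liver secretes as well, were found in 21 and 19 of the 21 plasma libraries. The 6 others summed to 7.94 to 46.7 CPM in healthy rats, 34.0 to 47.3 in control rats and 33.9 to 154 in hNSCs rats at 4 days. Of these Anpep, an aminopeptidase of many cell types, was found in 20 libraries, Rbp2 in 4, and Fabp2, Lct, Alpi and Vil1 in 1 or 2 each. Of 9 exocrine pancreas genes 4 were in the table, with a sum of at most 53.3 CPM and a median of 5.39. Cela1 was found in 11 of the plasma libraries, Ctrb1 in 3, Cpa1 in 1 and the pancreatic lipase gene Pnlip in 0. The part of these genes in the levels of the 10 was not tested.

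Of 57 other liver secretory genes on the list 55 were in the table, and 54 were tested in plasma. edgeR called 0 of them in the 6 comparisons, with 12, 1 and 7 at an unadjusted p below 0.05 for control against healthy at 4, 10 and 31 days, beside 5.86, 5.6 and 4.75% of all genes. For hNSCs against control there were 0, 0 and 6, beside 3.94, 4.06 and 8.57% of all genes. Their median log2 fold changes of control against healthy were 2.42, 1.51 and 2.37 at 4, 10 and 31 days, and those of hNSCs against control 0.70, 0.56 and −1.91. The 40 hepatocyte intracellular genes had medians of 1.76, 0.29 and 2.27, and of 0.42, 0.90 and −2.80. edgeR called 0 of these 40 as well, with 12 at an unadjusted p below 0.05 for hNSCs against control at 31 days, beside 8.57% of all genes, and 0 to 4 in the other 5 comparisons, beside 3.94 to 5.86%. These medians stood on the same side of 0 as those of the 10 genes. The most abundant other secretory genes in plasma were Tf with 336 FPKM, Ttr, the thyroxine carrier, with 259, Gc with 184, Hpx, the heme carrier hemopexin, with 167, and Apoc1 with 161.

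Between tissues, 45 of 48 tested secretory genes were called higher in plasma, beside 25.7% of all genes, and A2m was called lower. Those near 0 in brain could pass the filter only through plasma. In brain the highest secretory genes were Ttr with 8.28 FPKM, Itih3 with 7.32, Tf with 4.73, Cp with 1.07 and Rbp4 with 0.918. Ttr is also made by the choroid plexus and Tf by oligodendrocytes, whereas the 10 genes were near or at 0 in brain. C3, the central complement protein, was called higher in brain EVs of control rats at 10 days than of healthy rats (edgeR, log2 fold change 5.66, adjusted p = 0.0460).

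A liver miRNA was measured in separate libraries of the same rats, as counts of unique molecular identifiers and as TPM (here UMI counts per 1000000 of the library). miR-122-5p is the most abundant miRNA of hepatocytes, and its mature sequence is given with its seed, bases 2 to 8, in capitals, as the miRNA readout to which Alb is compared. The RefSeq sequence lies in GRCr8 at chr18:61028831-61028852 on the plus strand and equals the deposited one.
rno-miR-122-5p: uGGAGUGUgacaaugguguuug

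miR-122-5p ranked 5 among miRNAs of plasma EVs, with 12786 to 163973 TPM and a median of 54580, and had 1.15 to 295 TPM in brain EVs. It was 77038, 97920 and 15560 TPM in healthy plasma, 48181, 53050 and 94693 in the control group at 4 days and 30518, 118730 and 31090 in the hNSCs group at 4 days. At 10 days it was 12786, 65525 and 22060 TPM in control rats and 12890, 85085 and 84960 in hNSCs rats, and at 31 days 138015, 163973 and 44409 in control rats and 54580, 73472 and 36377 in hNSCs rats. The mean of the control rats at 10 days, 33457 TPM, lay below that of the healthy rats, 63506, with overlap, while the 10 mRNAs had a median log2 fold change of 1.45 in that comparison. The second control rat at 4 days, low in the 10 mRNAs, was not low in this miRNA relative to its library total, with 53050 TPM. Its 22779 UMIs were the fewest of its group. No plasma comparison called miR-122-5p, miR-122-3p, miR-192-5p or miR-194-5p (edgeR, lowest adjusted p = 0.336, 0 with an unadjusted p below 0.05 against 4.53 to 16.8% of all miRNAs in the 6 comparisons), where 0.0 to 0.971% of 309 miRNAs were called, 0.324% for control against healthy at 4 days. In brain EVs miR-192-5p was called lower at 31 days in control rats than in healthy ones (log2 fold change −1.01, SE 0.37, adjusted p = 0.0489), where 25.1% of 350 miRNAs were called in either direction.

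Across the 21 rats, plasma Alb as log2(FPKM + 1) and plasma miR-122-5p as log2(TPM + 1) had a Pearson r of 0.402 (permutation p = 0.0699, adjusted over 3 relations 0.210) and a Spearman rho of 0.532 (permutation p = 0.0147, adjusted 0.0442), both two-sided. Without the 2 rats farthest from the median of Alb r was 0.500 (permutation p = 0.0307), and with values centred within groups it was 0.471 (permutation p = 0.0290). On TMM-normalized log2(CPM + 1) values r was 0.368 (permutation p = 0.0995), and in the 12 rats without hNSCs it was 0.373 (permutation p = 0.242). In brain r was 0.034 (permutation p = 0.885, adjusted 0.976) and rho 0.052. Alb in brain and in plasma of the same rats had an r of −0.006 (permutation p = 0.976, adjusted 0.976) and a rho of −0.078.

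**Figure D5:**
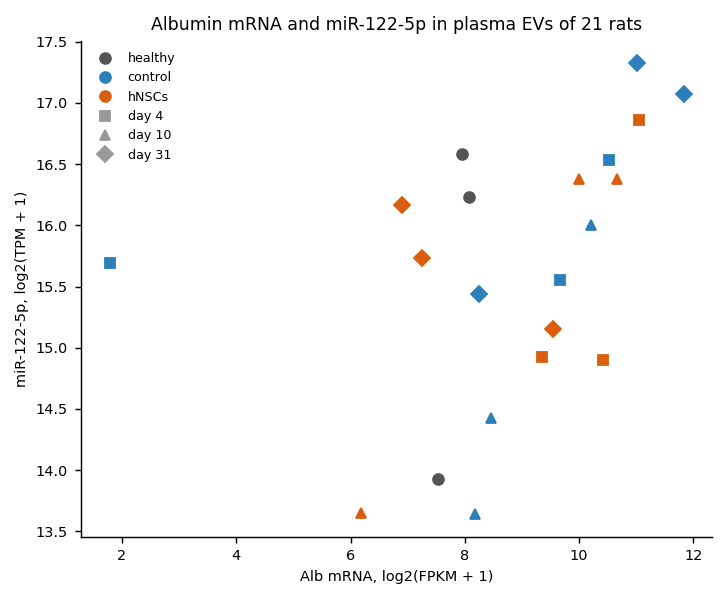
Plasma Alb as log2(FPKM + 1) against plasma miR-122-5p as log2(TPM + 1), with 1 point for each of 21 rats, marked by group. Rats high in one tended to be high in the other (Spearman rho = 0.532), and the second control rat at 4 days lies far to the side of low Alb.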

How the data were processed

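mRNA and miRNA were sequenced from EVs of the brain and plasma of 21 rats, and all groups were read from the sample labels. For mRNA, the authors made stranded total RNA libraries, mapped reads to Rnor_6.0 by Bowtie2 and ran StringTie. The read assignment and strand setting are not given in the sources used here. The deposited counts are whole reads per gene without normalization. The deposited FPKM are the authors' StringTie values. For miRNA, the deposited table gives counts of UMIs, and the authors' TPM divides them by the library total. Plasma EVs were isolated by size exclusion chromatography.

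Counts of annotated genes entered edgeR 4.0.16 under R 4.3.3 (TMM, filterByExpr, quasi-likelihood test, 1 model of 7 groups per tissue, Benjamini-Hochberg over all genes tested), called at an adjusted p below 0.05 and over 1.5-fold. Brain and plasma were compared with the rat as a block, since both come from the same animal. Ratios of counts within a library are descriptions, and the Hp and Fgb ratios at 4 days were singled out after their values were seen. Correlations used 100000 permutations. Alternatives were DESeq2 1.42.0, limma 3.58.1 on log2(FPKM + 1) with pseudocounts of 1 and 0.1, other scalings and filters, the replicate block and each library left out. Ratios between tissues use exact 95% binomial bounds and a floor of 3 counts over a tissue. Other steps ran in Python 3.11.15 (scipy 1.17.1, numpy 2.4.6, pandas 2.3.3, matplotlib 3.10.9). The edgeR test of control against healthy at 4 days was run on simulated counts of each tissue. The other tests were not run on simulated data.

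The genes and lists were chosen with earlier results of these data known. Genes outside the 10 were named by rule, as the 5 highest by FPKM on the 2 liver lists in each tissue, up to 5 called genes of these lists in a comparison, the 5 most like the mean of the 10 with a mean CPM of at least 5, defining cell markers and 4 liver miRNAs. A gene that this rule names is not reported here. Acute-phase classes are textbook lists.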

Additional observations from a re-analysis of the deposited data

How the results depend on the processing

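Of the plasma comparisons, the count of the 10 genes called by edgeR stayed at 0 under each alternative run, except that DESeq2 called 1 (Hp) for control against healthy at 4 days and 2 for hNSCs against healthy at 4 days. These DESeq2 counts stand without the share over all genes. Limma on log2(FPKM + 1) turned Alb at 4 days (control against healthy) to −0.53, and with a pseudocount of 0.1 Alb was at −0.67, Apoa2 at −0.52 and Apoh at −0.45. Leaving out 1 library at a time gave −0.26 to 1.81 for Apoa1 in that comparison, below 0 only without the third control rat. Between tissues, Apoc3 lost its call in healthy rats alone (log2 fold change 11.44, adjusted p = 0.0680). Numbered replicates of different groups were different animals, and their deviations correlated between −0.304 and 0.338 in plasma, where 3 of 21 libraries were closest to their own number. In brain these values were −0.182 to 0.426 and 11 of 21. With the replicate number as a block edgeR called 0 of the 10 genes in each comparison, and no replicate block in the tissue comparison left the 9 calls. For Alb and miR-122-5p in plasma, r was 0.471 centred within groups (permutation p = 0.0290) and 0.500 without 2 rats (permutation p = 0.0307), and rho in the 12 rats without hNSCs was 0.503 (permutation p = 0.0987). In brain r was −0.074 without 2 rats and −0.295 in the 12 rats, where rho was −0.158. For Alb between tissues r was 0.030 with a pseudocount of 0.1, 0.042 without 2 rats and 0.393 in the 12 rats, where rho was 0.374. Values of 3 rats a group limit these comparisons, and limma gave no brain value because no gene of the 10 passed its filter. The causes were not tested.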

Other observations

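Beyond the 10 genes, the ratio to Alb in plasma EVs was higher in all 6 libraries of day 4 than in the other 15 for 5 of 14719 genes, namely Hp, Fgb, Orm1, Pzp and Fgl1. Orm1 encodes the acute-phase protein alpha-1 acid glycoprotein, Pzp a protease inhibitor of the alpha-2 macroglobulin family and Fgl1 a fibrinogen-like protein secreted by hepatocytes. Without the second control rat at 4 days 14 genes did so, among them Itih3, Itih4, Hpx and A2m, all liver secretory genes. In the same comparison 16 genes were lower relative to Alb, among them the red cell genes Alas2, Slc4a1 and Kel. The 16 also included Serpina3c and the major urinary protein gene Mup5, of families with liver secretory genes, so that such genes were found on both sides. These genes were named after their values were seen, no test was made, and the red cell genes were also lower in CPM at 4 days (Alas2 in the control group against healthy, edgeR, log2 fold change −3.31, adjusted p = 0.0164).

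In the second control rat at 4 days the mRNAs were not low to the same degree. It had 1563 Hp and 1570 Serpina1 reads but 372 of Alb, 8 of Fga and none of Fgg, Apoh and Apoa2. Its Fgb had 299 reads beside the 8 of Fga, although the 2 chains were within 0.757 to 1.79 of each other in the other libraries.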
